A study of Mus musculus with 6 samples.

Results

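The array carried 16194 probes named by a genomic region and not by a gene, and 5942 of them lay close to a gene. A region probe was taken when the midpoint of its coordinates (mouse build mm9) was within 20 kb of the midpoint of any probe for a RefSeq messenger RNA, here called a gene probe, on the same chromosome. Of the other region probes, 10134 were farther away and 118 had no position. All told the array had 55681 different probes that were not controls, 26430 of them gene probes. The 5942 probes near genes came from 1311 regions on 20 chromosomes, and 396 of these regions had probes on both strands. A suffix in the region's name, F or R, gives the strand that the probe detects, with 3068 probes on the forward and 2874 on the reverse strand. Relative to the nearest gene probe, 2974 lay on the same strand and 2968 on the opposite strand. The median distance to it was 8.03 kb, and 4264 probes lay downstream of it in the direction of the gene against 1678 upstream. The neighbours were 855 gene probes of 823 genes, and up to 32 region probes shared 1 neighbour, so the region probes are not independent of each other. For 820 of them the named region itself contained the midpoint of a gene probe.

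The RNA was from G1E-ER-GATA-1, an established mouse line of red cell precursors. Its Gata1 gene is missing, and a fusion of GATA-1 with estrogen receptor sequence lets β-estradiol switch on maturation. The control group (3 arrays) received non-targeting siRNA and the SetD8 group (3 arrays) siRNA against Setd8 (current symbol Kmt5a). In both groups the cells were nucleofected at 0 h and 24 h, treated with β-estradiol from 24 h, harvested at 48 h, and grown with erythropoietin, Kit ligand and puromycin. There was 1 line, and the labels do not state whether replicate arrays are separate cultures. The p-values therefore measure only array-to-array spread here, which may be technical.

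Setd8 monomethylates lysine 20 of histone H4, a mark that is laid down around mitosis and is tied to chromatin compaction, replication licensing and genome stability. Transcription also occurs outside messenger RNAs. Long non-coding RNAs, divergent transcripts that start at a promoter and run the other way, antisense transcripts, unannotated exons and RNA that runs on past the end of a gene all give signal next to genes. A strand-specific probe beside a gene can therefore report the gene's own transcript, a transcript of the opposite strand or an independent one, and the array signal alone does not tell these apart. Whether a region is exonic, intronic or untranslated in a gene model was not determined here, because the coordinates are on mm9 and only names and gene order of a later build were used.

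Sequences of the probes on which the results turn are shown here, in the 5′ to 3′ direction as the files give them, so that they can be set against transcript models. The first lines are whole 60-base probes that lie more than 10 kb from the nearest gene probe. The region between Fmod and Btg2 and the bright region before Klf2 are among those with the smallest p-values. The 2 probes shown of the region next to Trp53inp1, out of several tested, lie on the same strand and had differences of opposite sign between the groups. Capitals in the Trp53inp1 line mark AATAAA, the polyadenylation signal.
chr1:135956757-135956816, minus strand, Fmod side: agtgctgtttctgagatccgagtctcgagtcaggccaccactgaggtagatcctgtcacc
chr1:135956697-135956756, minus strand, Fmod side: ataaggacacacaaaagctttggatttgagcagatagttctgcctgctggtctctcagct
chr1:135956619-135956678, minus strand, Fmod side: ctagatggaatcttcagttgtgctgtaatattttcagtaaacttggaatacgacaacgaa
chr8:74828626-74828685, plus strand, Klf2 side: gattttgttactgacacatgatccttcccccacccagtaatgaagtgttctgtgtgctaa
chr4:11111605-11111664, minus strand, Trp53inp1 side: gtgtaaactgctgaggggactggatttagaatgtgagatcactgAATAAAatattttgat
chr4:11111725-11111784, minus strand, Trp53inp1 side: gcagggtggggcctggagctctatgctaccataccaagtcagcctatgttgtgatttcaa

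For probes that may lie in the gene's own transcript, the first 30 bases are given. In the Acad12 pair, capitals mark the bases that the region probe and the gene probe share, 55 of 60 over their whole length.
Acad12 region, chr5:122048399-122048458, minus strand: tgcccACGTCACAGAATACTGATTCAGATG
Acad12 gene probe, chr5:122048394-122048453, minus strand: ACGTCACAGAATACTGATTCAGATGCTCTG
Saysd1 region, chr14:20896411-20896470, minus strand: tcatgtcctccactttccccctgacctgct
Jmy region, chr13:94200216-94200275, minus strand: aaatctccaatcactgttttgactgtcgcc
Mdm4 region, chr1:134883351-134883410, minus strand: tttgatgtggcgactatggaggaacaactc
Bbip1 region, chr19:54018896-54018955, minus strand: tccccgttaccccaggcaacagcagagcgg

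Some region probes lie in promoters. The 60-base sequences of 59 region probes near genes matched a RefSeq promoter window (GRCm38.p6, 250 bases before to 50 bases after a gene's start, 32851 windows), 36 of them in the direction of that gene and 26 against it, some in both ways where windows of divergent genes overlap.

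The arrays differed in how many probes they detected. The share of non-control spots well above background was 64.1%, 40.2% and 82.5% on controls 1, 2 and 3 and 60.3% to 68.6% on the SetD8 arrays. Control 1 and SetD8 1 and 2 shared a slide, control 3 and SetD8 3 shared another, and control 2 was alone on its slide. Across the region probes near genes, the SetD8 arrays correlated at 0.95 to 0.96 with each other and the controls at 0.70 to 0.90, lowest between controls 2 and 3. Of the erythroid markers, 9 of 10 were above background on all arrays (the exception was Epb42), against 4 of 5 megakaryocyte, 3 of 5 mast cell, 3 of 6 granulocyte and macrophage, 2 of 6 lymphoid and 2 of 5 stromal and endothelial markers. Their summed log2 level was 130.0 to 132.7 on controls and 130.0 to 133.5 on SetD8 arrays for erythroid, and 33.2 to 33.7 against 34.2 to 38.1 for stromal and endothelial markers. The part of other cell types in the results was not tested.

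Setd8 itself had no overlap between the groups, and all SetD8 arrays were below the controls. Its brighter probe read 11.49, 11.57 and 11.23 on controls 1, 2 and 3, against 9.58, 9.26 and 9.24 for SetD8 1, 2 and 3 (log2 signal corrected by normexp and then quantile normalized, the scale of all levels below). This is −2.07 ± 0.16 (SE), or 4.2-fold lower, and limma gave it a Benjamini-Hochberg adjusted p of 0.0172 over all 30971 probes tested. It was −2.07 within the first shared slide and −1.99 within the other, and with the slide as a block −2.04 with an adjusted limma p of 0.0722. After the 75th percentile scaling the difference was −2.24, with an adjusted limma p of 0.931. The second probe read −1.13 ± 0.24 (SE), with an adjusted limma p of 0.146.

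Region probes near genes were dim but often measurable, and most readily so in the first kilobase beside a gene probe on the gene's own strand. To be kept for testing, a probe had to be well above background on every array of 1 group or of both, and this held for 2847 of the 5942 (47.9%), against 44.2% of region probes farther from genes and 63.4% of gene probes. On all arrays, 1563 (26.3%) were above background, and on none, 964 (16.2%). The 2847 include 1157 kept through the SetD8 group alone and 127 through the control group alone. Control 2 detected 29.4% of the region probes near genes and control 3 detected 80.7%, against 51.9% to 62.8% on the SetD8 arrays. A count over the kept probes thus leans on which arrays detect dim probes. The median kept probe had a log2 level of 7.02 to 7.07 on each array, and gene probes 8.33 to 8.52.

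Within 1 kb of the gene probe, 150 of 214 same-strand probes were kept (70.1%), against 95 of 270 opposite-strand probes (35.2%). On the same strand the share was 71.8% upstream and 69.1% downstream. It was 49.7% at 1 to 5 kb and 47.9% at 10 to 20 kb. On the opposite strand the downstream side was lowest, with 57 of 192 probes (29.7%) in the first kilobase, 39.6% at 1 to 5 kb, 43.1% at 5 to 10 kb and 48.3% at 10 to 20 kb. The upstream side of the opposite strand stayed between 48.7% and 51.6% over all distances within 20 kb. Sides and distances are taken from the gene probe and not from the start of the gene, so they do not locate divergent transcripts. The strands thus differed in detection next to the gene probe and had like values by 10 kb. These shares are descriptions over probes that share regions and genes.

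**Figure D1:**
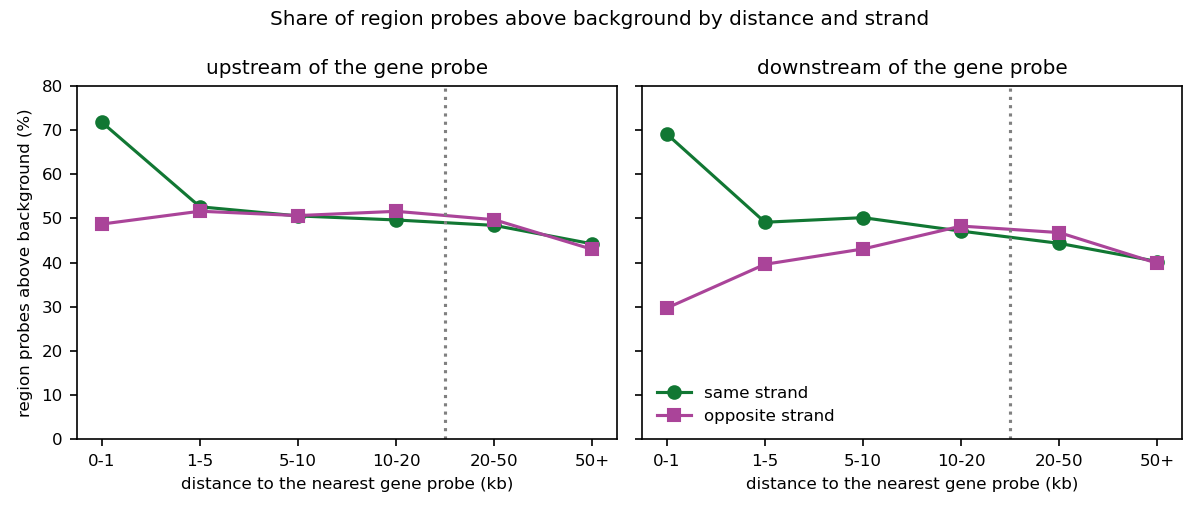
Share of region probes (y axis, %) kept for testing (well above background on every array of 1 group or of both), by distance to the nearest gene probe (x axis, kb), upstream (left) and downstream (right) of it, for the gene's own strand (green) and the opposite strand (purple); the dotted line is 20 kb. The strands part in the first kilobase, 69.1% against 29.7% on the downstream side, and meet by 10 to 20 kb.

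Detection followed the neighbour as well. Where the nearest gene probe was kept, 54.0% of same-strand and 47.4% of opposite-strand region probes were kept, and where it was not, 37.3% and 37.2%. Probe composition moved with detection too, with a median GC of 45% for region probes above background on all arrays and 38.3% for those above it on none, and its part in the detection was not tested. AATAAA, searched on the probe's own strand only, was in 4.16% of the region probes near genes, in 6.54% of the same-strand and 5.56% of the opposite-strand probes within 1 kb, in 3.81% of region probes farther away and in 13.2% of gene probes.

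After SetD8 siRNA few of these regions changed beyond the spread between arrays, and the one region that passed the test contained the Acad12 gene probe. With the 75th percentile scaling, limma called 0 of the 2847 kept region probes and 0 of all 30971 probes (0%) at an adjusted p under 0.05. At an unadjusted limma p under 0.05 there were 42 (1.48%), against 774 of all probes (2.5%). In simulated data the fit on this scale recovered 0 of 63 planted log2 changes of 3, so its 0 calls do not show that nothing changed. After normexp and quantile normalization limma called 3 of the region probes higher and 0 lower, against 94 of all probes higher (0.304%) and 6 lower (0.0194%). Of the region probes, 115 had an unadjusted p under 0.05, against 10.3% of all probes. With the slide as a block, which takes no difference from control 2, limma called 0 of all probes on the second scale (0%), of which 2872 had an unadjusted p under 0.05. On the 75th percentile scale the block gave 1 region probe, lower, against 0.352% of all probes higher and 0.0581% lower. Leaving out control 1 or any 1 of the SetD8 arrays gave 0 calls on the second scale, and leaving out control 2 or control 3 gave 2. Without control 2 the 75th percentile scaling gave 6 of 3566 region probes, all lower, against 71 of all 35947 probes in either direction, a like share. Other settings called more: over probes above background on all arrays there were 9 higher and 1 lower on the second scale (1.38% and 0.361% of all probes), and 2 higher and 0 lower on the 75th percentile scale (0.532% and 0.0475%). Trend and robust moderation gave 12 higher and 2 lower (1.68% and 0.901%).

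The arrays of the groups did not overlap for 236 of the kept region probes (8.30%), 150 higher and 86 lower, against 17.7% of all probes (9.48% higher, 8.19% lower) and 23.7% of gene probes. After 75th percentile scaling it was 172 (6.05%) against 7.56% (4.54% higher, 3.02% lower). On the normexp and quantile scale this share went with brightness. It was 5.87% for region probes with a mean log2 level under 7 and 25.9% for the 112 above 10, where gene probes had 43.5%. After 75th percentile scaling it did not, with 6.21% of region probes in the dimmest class and 5.45% in the brightest. The median change was 0.02 against 0.01 for all probes, and on the 75th percentile scale 0.26 against 0.09. The latter depends on the scaling, on the filter and on 1 array. It was −0.24 against −0.41 with median scaling, −0.04 against 0.00 with the slide as a block, and −0.18 against −0.06 without control 2. Over probes above background on all arrays, which leaves out those kept through 1 group alone, it was 0.04 against −0.11. On the normexp and quantile scale that filter gave −0.02 against −0.03.

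Acad12 encodes a member of the acyl-CoA dehydrogenase family, enzymes of mitochondrial fatty acid oxidation. Its region, chr5:122048289-122068947 on the minus strand, contains the gene probe, and its 3 region probes near genes all lie within 0.10 kb of it on the same strand. The first, which shares 55 of its 60 bases with the gene probe, read 9.39, 9.26 and 9.32 on controls 1, 2 and 3, against 10.43, 10.70 and 10.53 for SetD8 1, 2 and 3. Every SetD8 array was above every control. The change was +1.23 ± 0.13 (SE), 2.35-fold, with an adjusted limma p of 0.0242, and it was +1.18 and +1.21 within the slides that hold both groups. The second probe, 0.10 kb upstream, read 8.81, 8.78 and 8.91 against 9.83, 10.12 and 9.96, a change of +1.14 with an adjusted limma p of 0.032. The third, 0.055 kb downstream, read 8.40, 8.58 and 8.29 against 9.45, 9.46 and 9.62, a change of +1.08 with an adjusted limma p of 0.042. Neither group's arrays overlapped the other's for these probes. The gene probe read 9.08, 8.93 and 8.93 against 10.12, 10.37 and 10.32, a change of +1.29 ± 0.13 (SE), 2.44-fold, with an adjusted limma p of 0.022. The region minus gene differences were −0.05, −0.15 and −0.20, the first with an adjusted limma p of 0.974. After 75th percentile scaling the first probe's change was +1.16 with an adjusted limma p of 0.931, and with the slide as a block on the normexp and quantile scale it was +1.19 with an adjusted limma p of 0.131.

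**Figure D2:**
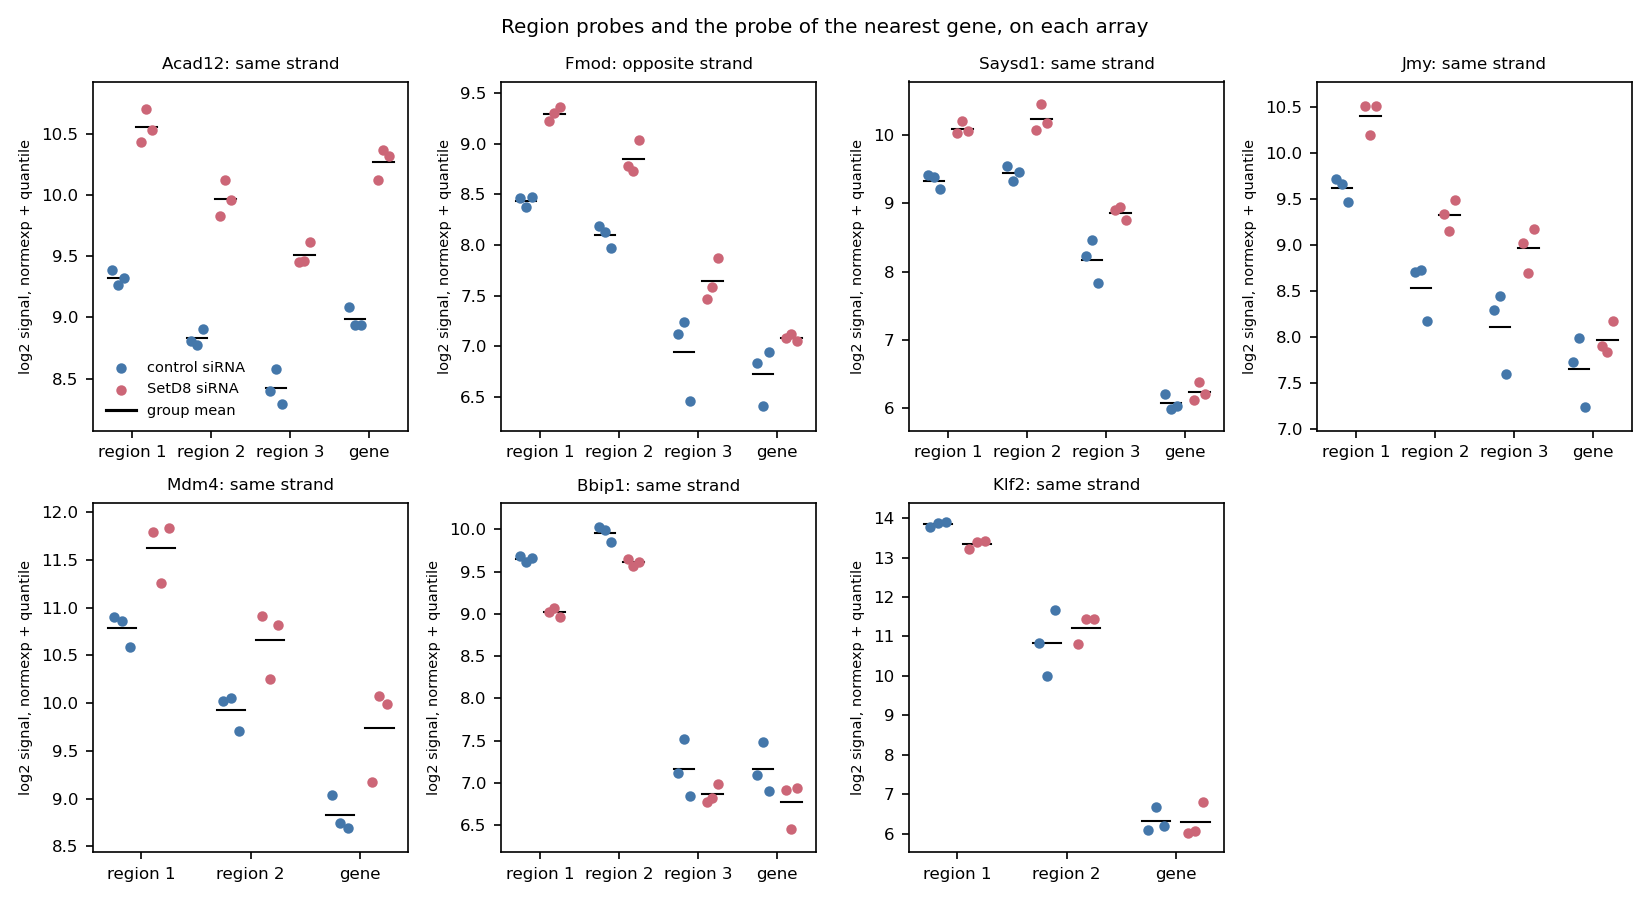
Log2 signal after normexp and quantile normalization (y axis) on each array for the region probes and the gene probe beside 7 genes (x axis); blue points are control arrays, red points SetD8 arrays and black lines group means. At Acad12 the region probes and the gene probe are all higher on the SetD8 arrays, from 9.32 to 10.56 on average for the first region probe. At Fmod the region probes differ by +0.70 to +0.86 and the gene probe by +0.35, an order that turns on the 75th percentile scale.

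None of the other regions passed the threshold, and those with the smallest p-values are given as such. Among those with higher values after SetD8 siRNA, the region nearest to the threshold was chr1:135956616-135957485 on the minus strand. It lies 12.8 kb from the gene probe of Fmod, which encodes fibromodulin, a collagen-binding proteoglycan, and 15.3 kb from that of Btg2, an antiproliferative p53-responsive gene. The region is on the strand opposite to Fmod and on the same strand as Btg2. RefSeq (GRCm38.p6) places Gm19497 between them. Its first probe read 8.47, 8.37 and 8.47 on controls, against 9.22, 9.31 and 9.37 on SetD8 arrays, so the groups lay apart by more than their own widths. The difference was +0.86 ± 0.12 (SE), 1.82-fold, with an adjusted limma p of 0.0534, and it was +0.80 and +0.89 within the shared slides. The second read 8.19, 8.13 and 7.97 against 8.79, 8.73 and 9.04 (+0.75, adjusted limma p 0.11), and the third 7.13, 7.24 and 6.46 against 7.47, 7.58 and 7.87 (+0.70, adjusted limma p 0.354). None of these overlapped between groups either. The flanking gene probes read +0.35 for Fmod (adjusted limma p 0.559) and −0.26 for Btg2 (adjusted limma p 0.657). The Fmod probe was dim, above background on 2 of 3 controls, and after 75th percentile scaling it read +1.49 against +0.95 for the first region probe. So which of them differed more depends on the scaling. That +1.49 leaned on control 2, which read −5.04 against −1.84 and −1.10 on controls 1 and 3, and the groups overlapped. With the slide as a block the Fmod value on that scale was +0.31. With moderation by trend and robust eBayes the first probe had an adjusted limma p of 0.0214.

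A second such region contains the gene probe of Saysd1, a gene named for its SAYSvFN domain, and lies on its strand (chr14:20893694-20903726). The region probe 1.52 kb upstream of the gene probe read 9.41, 9.38 and 9.21 on controls, against 10.02, 10.20 and 10.05 on SetD8 arrays, a difference of +0.76 ± 0.13 (SE) with an adjusted limma p of 0.09. The probe that adjoins it read 9.55, 9.33 and 9.45 against 10.08, 10.46 and 10.18 (+0.79, adjusted limma p 0.113), and 2 more were at +0.69 and +0.68. These 4 had the groups apart. The same-strand probe nearest the gene probe differed by +0.19, and the tested probes of the opposite strand of the same region differed by +0.08 to +0.24. The Saysd1 gene probe was not well above background on any array, so that the gene itself gives no comparison.

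Downstream of the gene probe of Jmy, which encodes a p300-binding cofactor of p53 and actin nucleator, a region of the same strand (chr13:94200051-94200598, 5.03 kb away) read 9.71, 9.66 and 9.47 on controls, against 10.51, 10.19 and 10.51 on SetD8 arrays. This is a difference of +0.79 ± 0.15 (SE) with an adjusted limma p of 0.113. Its other probes differed by +0.79 and +0.85, again without overlap, against +0.31 for the Jmy gene probe (adjusted limma p 0.741). The region opposite to Prss52, a testis serine protease, read +0.80 with an adjusted limma p of 0.168 in 1 of 3 probes. That probe was above background on 2 controls and kept only through the SetD8 group, where it was high, and the other 2 were not kept.

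Mdm4, an inhibitor of p53, had a region 2.91 to 3.08 kb behind its gene probe on the same strand (chr1:134883350-134883624), chosen here after its values were seen. The first probe read 10.90, 10.86 and 10.59 on controls, against 11.79, 11.26 and 11.84 on SetD8 arrays (+0.85 ± 0.20 SE, adjusted limma p 0.172). The second read 10.03, 10.05 and 9.70 against 10.92, 10.25 and 10.82 (+0.73, adjusted limma p 0.266). In both, SetD8 2 was the lowest of its group and still above every control. The gene probe read 9.03, 8.74 and 8.69 against 9.17, 10.07 and 9.99, a difference of +0.92 with an adjusted limma p of 0.26. There SetD8 1 was the lowest of its group and lay just above the controls.

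Differences towards lower values reached −0.65 at most, against +1.35 towards higher ones. Bbip1, a subunit of the BBSome, which sorts cargo to the cilium, had the lowest p of these. Its region (chr19:54011403-54019143, minus strand) has a probe 13.9 kb upstream of the gene probe. It read 9.68, 9.62 and 9.66 on controls, against 9.02, 9.06 and 8.96 on SetD8 arrays, a difference of −0.64 with an adjusted limma p of 0.101. The groups were tight and apart. A second probe read 10.03, 9.99 and 9.85 against 9.65, 9.57 and 9.62 (−0.35, adjusted limma p 0.372), and 3 others were between −0.30 and −0.19. Of these 3, 2 lie in the RefSeq promoter window of Shoc2, a scaffold of RAS to RAF signalling, against its direction. Bbip1 itself was at −0.39 (adjusted limma p 0.636). Shoc2 was at −0.24 (adjusted limma p 0.862).

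The plus-strand region before Klf2 (chr8:74820025-74833350), a gene for a Krüppel-like transcription factor that acts in embryonic erythroid cells, was among the brightest of the set. The probe 16.5 kb upstream read 13.78, 13.86 and 13.89 on controls, against 13.22, 13.40 and 13.42 on SetD8 arrays. The groups lay apart, with a difference of −0.50 ± 0.13 (SE) and an adjusted limma p of 0.204. It was −0.47 within each shared slide, and with trend and robust moderation its adjusted limma p was 0.0215. The other probe of the same region read 10.83, 9.99 and 11.67 against 10.80, 11.43 and 11.44, so the groups overlapped there (+0.40, adjusted limma p 0.849). Klf2 was well above background on 1 array of each group and was not tested.

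The remaining regions with lower values had single probes in which the groups lay apart. In the region that contains the gene probes of Snx6, a retromer-associated sorting nexin (chr12:55844075-55898175, minus strand), the probe 5.01 kb upstream of a gene probe read 10.54, 10.54 and 10.48 against 9.99, 9.89 and 10.16, a difference of −0.51 with an adjusted limma p of 0.212. The probe beside the gene probe differed by −0.06. A region opposite to Gm14391, a predicted gene, differed by −0.56 (adjusted limma p 0.234).

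Among the brightest region probes, 3 lay within 0.05 kb of the gene probe of Borcs8 (2310045N01Rik in the files), a subunit of the BORC complex that positions lysosomes. The brightest of them read 13.74, 13.58 and 13.86 on controls, against 14.15, 14.17 and 14.33 on SetD8 arrays, a difference of +0.49 with an adjusted limma p of 0.246. The other 2 differed by +0.48 and +0.46, and the Borcs8 gene probe by +0.49 (adjusted limma p 0.283). By their coordinates these region probes all overlap the gene probe on its strand, so their values are not separate from that of the gene. All 3 had the groups apart, as did the gene probe. Downstream of the gene probe of B4galt5, a galactosyltransferase, the region probe read 13.56, 14.08 and 13.89 against 13.75 on each SetD8 array, and the groups overlapped.

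The correlation between a region's change and that of its gene was highest for same-strand pairs within 1 kb, although no difference between strands or distances was tested. Across 128 same-strand pairs within 1 kb (47 genes), the change of the region and that of the gene correlated with Pearson's r of 0.70 and Spearman's rho of 0.58, and 90 pairs had the same sign. Pearson's r was 0.38 at 1 to 5 kb, 0.22 at 5 to 10 kb, 0.12 at 10 to 20 kb and 0.04 at 20 to 50 kb. Opposite-strand pairs had 0.26 within 1 kb (86 pairs, 43 genes), 0.17 at 1 to 5 kb, 0.04 at 5 to 10 kb, 0.05 at 10 to 20 kb and 0.10 at 20 to 50 kb. On the 75th percentile scale the same-strand values were 0.64, 0.36, 0.24 and 0.19, and the opposite-strand ones 0.29, 0.10, 0.01 and 0.04. These are descriptions across probe pairs, without a test. All pairs share the same arrays, many share a gene, and a shift of a whole array enters both sides. Some pairs also share bases or a transcript: the same-strand r within 1 kb was 0.56 without Acad12, 0.56 over the 109 pairs whose probes do not overlap, and 0.30 over the 31 pairs whose named region contains no gene probe. Over the 38 opposite-strand pairs of that last kind it was 0.31, so there the strands had like values. Control 2 weighed on it, with 0.55 without that array on the normexp and quantile scale and 0.29 on the other. The opposite-strand value was −0.04 without it.

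**Figure D3:**
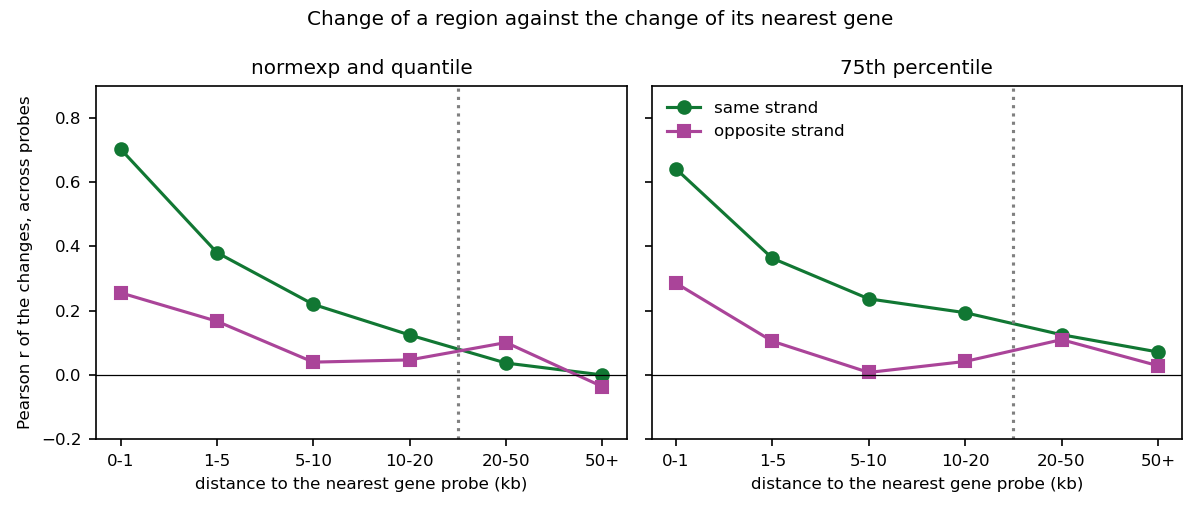
Pearson correlation (y axis) across probe pairs between the change of a region probe and that of its nearest gene probe, by distance (x axis, kb), for same-strand (green) and opposite-strand (purple) pairs, after normexp and quantile normalization and after 75th percentile scaling. The same-strand value falls from 0.70 within 1 kb to 0.12 at 10 to 20 kb on the first scale.

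**Figure D4:**
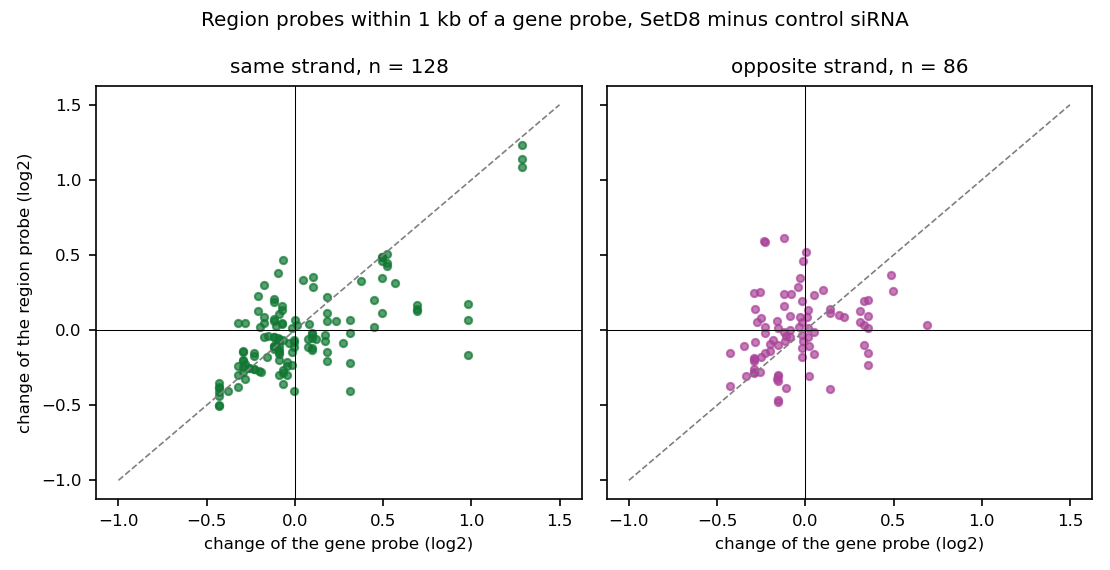
Change after SetD8 siRNA (log2, SetD8 minus control) of the gene probe (x axis) against that of the region probe (y axis) for pairs within 1 kb, 128 on the same strand and 86 on the opposite strand; the dashed line marks equal change. The Acad12 pairs lie at the upper end of the same-strand panel near the line, some same-strand regions stay near 0 beside genes with a higher value, and the opposite-strand points scatter about 0.

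Of the genes next to these regions that rose, 3 are p53 targets. Trp53inp1, a p53-induced regulator of autophagy and cell death, read 10.82, 10.60 and 10.45 on controls, against 13.10, 12.62 and 13.17 on SetD8 arrays, a change of +2.34 ± 0.19 (SE) with an adjusted limma p of 0.0172. Phlda3, a p53-induced repressor of AKT, read 9.85, 9.69 and 9.12 against 12.28, 12.57 and 11.94 (+2.71 ± 0.25 SE, adjusted limma p 0.02). Cdkn1a, the cyclin-dependent kinase inhibitor p21, read 8.07, 7.83 and 8.42 against 9.65, 9.87 and 9.96 (+1.72, adjusted limma p 0.0256). All 3 genes had every SetD8 array above every control. No probe passed on the 75th percentile scale, these included, but with the slide as a block on that scale limma gave adjusted p of 0.000353 for Trp53inp1, 3.65e-05 for Phlda3 and 0.0355 for Cdkn1a.

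None of the region probes beside these 3 genes was called. The region next to Trp53inp1 (chr4:11102287-11118421) has its probes 10.4 to 10.7 kb downstream of the gene probe. RefSeq lists A630034I12Rik between Trp53inp1 and Ccne2, the gene on the other side. On the opposite strand, the probe with AATAAA printed above read 7.36, 7.21 and 7.33 on controls, against 6.59, 6.64 and 6.82 on SetD8 arrays, a difference of −0.61 with an adjusted limma p of 0.144. The probe 120 bases on, on the same strand of the same region, read 7.79, 7.61 and 8.24 against 8.08, 8.62 and 8.20 (+0.42, adjusted limma p 0.617), so these 2 probes differed in sign. The other tested probes of that strand leaned lower. With 1 array left out, 1 ranged from −0.58 to −0.19 and another from −0.44 to +0.04. The 2 tested probes on the strand of Trp53inp1 were at −0.01 and −0.04. Near Phlda3, the region 14.1 kb downstream (chr1:137679100-137689925) read 7.61, 7.75 and 7.39 against 7.76, 8.23 and 7.97 on the opposite strand (+0.41, adjusted limma p 0.492) and 6.59, 6.27 and 6.67 against 6.80, 6.84 and 6.61 on the same strand (+0.24). Upstream of the Cdkn1a gene probe, the 3 tested probes of chr17:29183003-29217681, each kept through 1 group alone, were at +0.12, +0.05 and −0.20. The opposite strand of that interval, chr17:29192453-29216073, where RefSeq lists Gm41556 and Trp53cor1 between Srsf3 and Cdkn1a, was looked at after its values were seen. A probe of it read 7.44, 7.48 and 8.06 against 8.29, 8.35 and 8.43 (+0.70, adjusted limma p 0.246). The nearest gene on that side was Srsf3 and not Cdkn1a, and the Srsf3 gene probe differed by −0.23 (adjusted limma p 0.861).

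**Figure D5:**
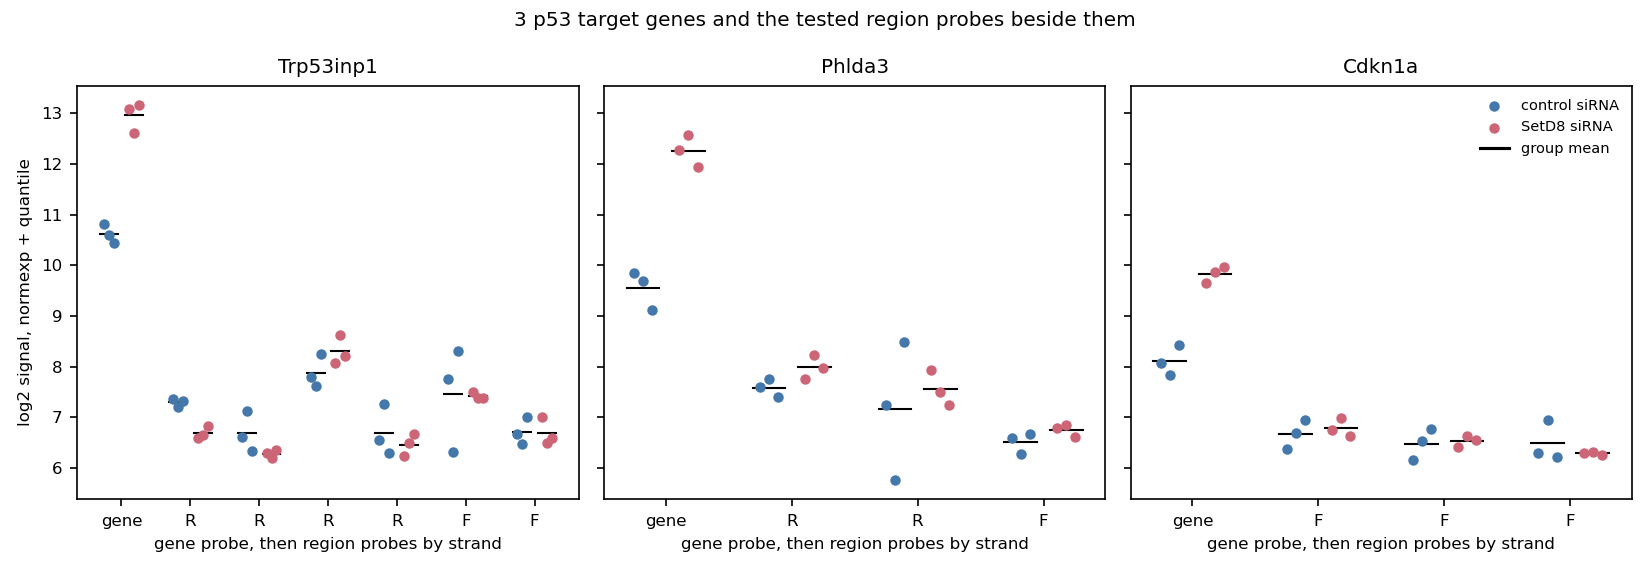
Log2 signal after normexp and quantile normalization (y axis) per array of the gene probes of Trp53inp1, Phlda3 and Cdkn1a and of the tested region probes near them, by strand (x axis); blue points are controls, red points SetD8 arrays and black lines group means. The gene probes differ by +2.34, +2.71 and +1.72, and the region probes by −0.61 to +0.42.

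The difference between region and gene was tested directly for 2389 pairs near genes, within a limma fit over all 5388 pairs. After normexp and quantile normalization 6 of these pairs passed, against 12 of all pairs (0.223%), and in all 6 the region's change was below that of its gene. They were 4 probes downstream of the Trp53inp1 gene probe, with region minus gene changes of −2.95, −2.75, −2.58 and −2.35 (adjusted limma p 0.011, 0.0237, 0.0277 and 0.0269). The other 2 lay near Phlda3, at −2.31 and −2.47 (adjusted limma p 0.0262 and 0.0269). Of these 6 region probes, those at −2.95 and −2.31 were above background on all arrays. Those at −2.75 and −2.58 were kept through the control group alone, and those at −2.35 and −2.47 through the SetD8 group alone, so these 4 values rest on a probe at background on some arrays. Over probes above background on all arrays the fit called 3 pairs. Cdkn1a was next, at −1.66 with an adjusted limma p of 0.0531. On the 75th percentile scale 0 of all pairs passed (0%), with 44 pairs near genes at an unadjusted limma p under 0.05 (112 of all pairs) and 181 on the other scale (425 of all pairs). Most of these region probes are dim, and the normexp offset narrows differences between dim values. With the slide as a block or without control 1 or any 1 SetD8 array the fit gave 0 pairs, and without control 2 it gave 15.

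In all, 8 genes next to tested region probes passed the threshold, all higher: Trp53inp1, Phlda3, Cdkn1a, Natd1 (+1.20, adjusted limma p 0.0208), Tle6, Myo1g, Gm3448 and Acad12. Beside them were 15 tested same-strand probes, 12 with a positive difference and a median of 0.15, and 10 opposite-strand probes, 6 positive with a median of 0.07. Of these 25, limma called the 3 of Acad12. Beside genes that were not called, 615 of 1257 same-strand probes had a positive difference (median −0.01).

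No region was called for a difference in change between its strands. Over 764 regions with both strands measured, 333 of them near genes, limma called 0 on either scale (0%), with 6 near genes at an unadjusted p under 0.05 after normexp and quantile normalization (12 of all regions) and 1 after 75th percentile scaling (2 of all). The smallest p belonged to chr10:39659425-39674200, next to G630090E17Rik. Its forward strand read 8.71, 7.16 and 8.67 on controls, against 9.16, 10.13 and 9.30 on SetD8 arrays, and the reverse strand differed by +0.15. Forward minus reverse was +1.20 ± 0.38 (SE), with an adjusted limma p of 0.999, and control 2 was the low array. The forward strand was measured by 1 probe, whose difference of +1.35 was the largest of the region probes near genes. On the 75th percentile scale, over probes above background on all arrays, limma called it (+1.90, adjusted limma p 0.00135). Next came the regions beside Mrpl36 (−0.58), Mphosph9 (+0.99) and Rnf26 (−0.46).

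Few listed pathway genes were the nearest gene of a measured region probe. Of 33 listed p53 targets, 3 were the nearest gene of region probes within 20 kb. These were 18 probes, 12 tested, with a median difference of 0.02 against 0.01 over all probes, 1 at an unadjusted limma p under 0.05 and 0 called. Of 47 erythroid and GATA-1 genes, Btg1 and Tmcc2 had 21 probes, 11 tested (median 0.08). Of 29 interferon genes, Irf1 and Isg15 had 25, 13 tested (median −0.00). Pcna and H1f5 of the 49 replication, mitosis and histone genes had 8, 3 tested (median 0.06), although Pcna itself read −0.73 (adjusted limma p 0.146). Nop58 and Egln3 of the 31 MYC, glycolysis and stress genes had 15, 5 tested (median −0.22), and Nop58 read −0.70 (adjusted limma p 0.137). After 75th percentile scaling the medians of the 5 lists were 0.59, 0.47, 0.53, 0.19 and 0.11. Over all kept region probes near genes the median was 0.26 on that scale, and over all probes 0.09. The sign of the last list and the size of each thus depend on the scaling. Limma called 0 in each of these lists, with 0 at an unadjusted p under 0.05 in the last 4.

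At the edge of the distance rule, the probe nearest inside 20 kb, at 19.997 kb from Phf14 (chr6:11994002-11997859, plus strand), was not well above background on any array. The one nearest outside, at 20.002 kb from Enc1 (chr13:98038568-98068079, minus strand), differed by −0.09. With 3 arrays in each group, an exact two-sided permutation test of 1 probe cannot give a p below 0.1, so no single probe is judged by it here.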

How the data were processed

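Agilent 1-colour (Cy3) arrays were used. The deposited scanner files give spot intensity from Feature Extraction, version 10.7.3.1 in the file headers, and the submitters' processing notes name limma. The processed signal served the first scaling, and mean signal with median background the second. The deposited series matrix holds the same processed intensity within 0.006, not normalized between arrays, and served as an alternative. Computed here were log2 processed signal minus each array's 75th percentile, and normexp (offset 50) with quantile normalization. Control spots and outlier flags were left out, and spots of 1 probe averaged. Differences were fitted with limma 3.58.1 (R 4.3.3) over all 30971 kept probes, Benjamini-Hochberg threshold 0.05. Strand and mm9 position came from the files; RefSeq tables gave names, gene order and promoters. Python 3.11.15, pandas 2.3.3, numpy 2.4.6, scipy 1.17.1 and matplotlib 3.10.9 were used.

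Named were Setd8, called regions and those with the smallest p up to 6 per direction, the 5 brightest, up to 3 per gene list, regions at fixed p53 and erythroid genes, and the edges of the rule. The regions and lists were chosen with earlier results of these data known. Fits were tested on simulated data. At a planted log2 change of 3, the probe fit recovered 94.7% after normexp and quantile normalization and 0% on the 75th percentile scale. The pair fit recovered 90.5% and 0%, and the strand fit 98.4% and 63.2%. At a planted log2 change of 1, the probe, pair and strand fits recovered 35.1%, 28.8% and 68.9% after normexp and quantile normalization. On the 75th percentile scale they recovered 0%, 0% and 4.41%. Changes of that size could thus be missed on both scales. Alternatives covered filters, scalings, offset, slide and replicate block, moderation, distance window, overlap and each array left out. The number of arrays limits the precision. Some regions that the naming rule picks are not reported here.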

Additional observations from a re-analysis of the deposited data

How the results depend on the processing

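Counts of called region probes and pairs depended on the setting, and the cause was not tested unless named. On the 75th percentile scale (0 called) the count was 2 with probes above background on all arrays, 1 with the slide as a block, and 0 to 6 with 1 array left out. After normexp and quantile normalization (3 called) it was 10 with probes above background on all arrays, 14 with trend and robust moderation, 1 with 1 probe per region and strand (fewer probes), 0 with the slide as a block, 0 with an offset of 16, and 0 to 2 with 1 array left out. Region against gene (6 pairs called) gave 3 with probes above background on all arrays, 20 with no filter, 1 with an offset of 16, 2 with 1 probe per region and strand, 0 within 5 kb (fewer pairs), 12 within 50 kb (more pairs), 0 with the slide as a block, and 0 to 15 with 1 array left out. The pair fit on the 75th percentile scale and the strand fits on both scales gave 0 under every alternative run. Detection was 26.3% when all arrays were required. The opposite-strand correlation within 1 kb ranged from −0.037 to 0.33 with 1 array left out, and the lowest value, without control 2, was of opposite sign. The median change of the region probes on the 75th percentile scale also changed sign, from −0.18 to 0.48 with 1 array left out. It was 0.39 when the percentile was taken over probes detected on all arrays (0.22 over all probes).

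The brighter Setd8 probe on the 75th percentile scale was −2.24 with probes above background on all arrays (adjusted limma p 3.55e-05), −1.93 with the slide as a block (adjusted limma p 0.0296) and −2.24 with normexp (adjusted limma p 0.049). On the other scale it was −2.04 with the slide as a block, and −2.18 to −2.0005 with 1 array left out. The second probe was −1.13 with trend and robust moderation (adjusted limma p 0.0398). Whether replicate numbers pair the samples could not be decided, because correlations of deviations within groups of so few arrays cannot show it. Deviations of same-numbered arrays correlated at 0.15, −0.28 and −0.29 after normexp and quantile normalization. With the replicate block limma called 0 region probes and 0 pairs there, and the Setd8 probe was −2.07 (adjusted limma p 0.291). For the named regions 442 alternative values kept their side of the threshold, 15 passed it and 7 no longer did. Among values called, or with an unadjusted limma p under 0.05 in the main fit, 0 changed sign. Weaker differences did change sign, such as 1 probe near Phlda3, from −0.31 to +1.06 with 1 array left out. Dim signal limits the set, of which 47.9% was kept for testing.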
